A study of Mus musculus with 6 samples.

Results

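Type I interferon-stimulated genes are the genes that a cell switches on when interferon alpha or beta reaches its receptor. A list of 44 of these genes was followed in LT-HSC, the long-term haematopoietic stem cells of bone marrow that can rebuild all blood lineages, with and without the transcriptional regulator Prdm16. Members were taken by symbol from a table of 27179 genes, and were kept if their log2 CPM (reads scaled to a common library size) was 0 or more in at least 3 of 6 libraries. All 44 members met that limit, as did 13018 genes in all. In this pathway double-stranded RNA induces interferon, and interferon leads, through the kinases Jak1 and Tyk2, to a factor named ISGF3. That factor binds a promoter element called ISRE. The products detect, degrade or trap viral RNA, attach the ubiquitin-like protein ISG15 to other proteins, and feed back on the signal. Interferon is known to drive dormant LT-HSC into division, and stem cells keep part of this programme active without infection.

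The control libraries (genotype Prdm16-Mx1-Cko/Cko; +/+) came from mice with conditional Prdm16 alleles and no Cre transgene. The knockout libraries (Prdm16-Mx1-Cko/Cko; Tg/+) came from mice that also carried Mx1-Cre, in which the promoter of the interferon-stimulated gene Mx1 drives the recombinase and which acts in many interferon-responsive cell types. Both groups were adult C57BL/6 mice, 8 to 12 weeks old, and both received 5 injections of pIpC, a synthetic double-stranded RNA that induces interferon. Cells were sorted 5 weeks later by the gate Lin-, c-Kit+, Sca-1+, CD150+, CD48- from marrow pooled over 5 mice per genotype, and were collected as 3 technical replicates per genotype. P-values therefore measure the spread between portions of 1 pooled sort, not between animals, and the presence of the Cre transgene cannot be told apart from the loss of Prdm16.

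Library totals ran from 36747729 to 43743795 reads. Prdm16 was at 40.3, 50.5 and 31.7 CPM in control replicates 1 to 3 and at 8.74, 9.04 and 14.7 CPM in knockout replicates 1 to 3, and its log2 fold change was -1.93 (SE 0.27, limma adjusted p = 0.00829). That call was lost without the trend (0.0967), without the low-value filter (0.0599) and without knockout replicate 2 (0.0508 or 0.065). Of 12 listed LT-HSC markers, such as Procr and Mecom, all were tested and 0 were called, with summed levels of 2608 to 2822 CPM in control and 2633 to 2896 CPM in knockout. Some markers of other cell types differed between the groups. Of 15 neutrophil markers 14 were tested and 10 rose, with summed levels of 306.4 to 321.5 CPM in control and 1135 to 1334 CPM in knockout, and Mmp8 was at 0 reads in every control library. Of 8 eosinophil markers all were tested and 6 rose, with summed levels of 0.624 to 2.92 CPM in control and 553.2 to 652.4 CPM in knockout, and Epx and Ear1 were at 0 reads in every control library. Of 11 monocyte and macrophage markers 8 were tested and 2 rose, from summed levels of 576.8 to 594.9 CPM to 801.3 to 914.3 CPM, and Adgre1 and Mrc1 were at 0 reads in every control library. Of 7 markers of plasmacytoid dendritic cells, a main source of interferon, 3 were tested and 0 were called, with summed levels of 0.0543 to 4.48 CPM in control and 4.69 to 10.4 CPM in knockout. Of 7 basophil and mast cell markers 4 were tested and 2 rose (12.9 to 18.0 CPM against 91.1 to 101.5), with Prss34, Mcpt8, Ms4a2, Gzmb and Cd200r3 at 0 reads in control. Gzmb was at 0 reads in every knockout library too. Ms4a2 (0, 6 and 69 reads in knockout replicates 1 to 3) and Cd200r3 (59, 0 and 44 reads) did not pass the filter. Of 11 B and plasma cell markers 7 were tested and 1 rose (59.8 to 66.1 CPM against 234.9 to 252), with 6 at 0 reads in control, Ms4a1 among them. Most of that control sum was Cd79b, at 57.8, 62.0 and 63.2 CPM in control and 40.0, 45.4 and 51.5 CPM in knockout. Its log2 fold change was -0.425 (limma adjusted p = 0.334). Of 8 T and NK cell markers 2 were tested and 0 were called (74.8 to 100.7 CPM against 91.8 to 116.8), and of 9 endothelial and stromal markers 5 were tested and 1 rose (46.2 to 57.2 CPM against 71.3 to 89.3). In each marker list 0 genes were called lower. A gene under the filter limit in every control library enters the test only through its knockout libraries, and can then only come out higher. This held for all the called eosinophil, basophil and B cell genes, and for Elane and Ctsg among the called neutrophil genes. Those counts are thus partly set by the filter. Over all genes tested, 0.407% were called higher. Single genes held most of the control sum in other lists too. These were Prtn3 for neutrophils (mean 209.2 CPM in control, 211 in knockout) and Cpa3 for basophils (12.7, 12.8). For monocytes it was Lyz2 (560.3, 763), for T and NK cells Nkg7 (82.65, 95.83), and for endothelial cells Emcn (35.4, 36.57). The part of cells other than LT-HSC in the values below was not tested. In bulk RNA, more cells of a type and more RNA per cell cannot be told apart.

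Most interferon-stimulated genes were somewhat higher in knockout, and 1 of the 44 passed the test. The log2 fold change was positive for 36 members (81.8%, against 50.5% of all genes tested) and negative for 8, with a median of 0.24 beside 0.003 for all 13018 genes. The larger values lay among members of low level. The 11 members of lowest control CPM had a median of 1.04 and 11 positive values. The 33 others had a median of 0.17, with 25 positive and 8 negative values. Control levels made this split and also enter the fold change, so it is a description. Ifi27l2a, a member of the ISG12 family of small interferon-induced membrane proteins, rose (adjusted p below 0.05), and 0 members fell. The share called higher was 2.27% of members, 1 gene, against 0.407% of all genes. The share called lower was 0.292% of all genes. In 21 members (47.7%) every knockout library lay above every control library, which held for 8.52% of all genes tested. In 3 members (6.82%, against 8.01% of all genes) every knockout library lay below every control library, namely Parp9, Sp100 and Epsti1. At an unadjusted p under 0.05, 18 members were higher (40.9%, against 5.58% of all genes) and 1 was lower (2.27%, against 4.72%), where 10.3% of all genes passed in either direction. Counts and medians describe the list and are no test of it.

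**Figure D1:**
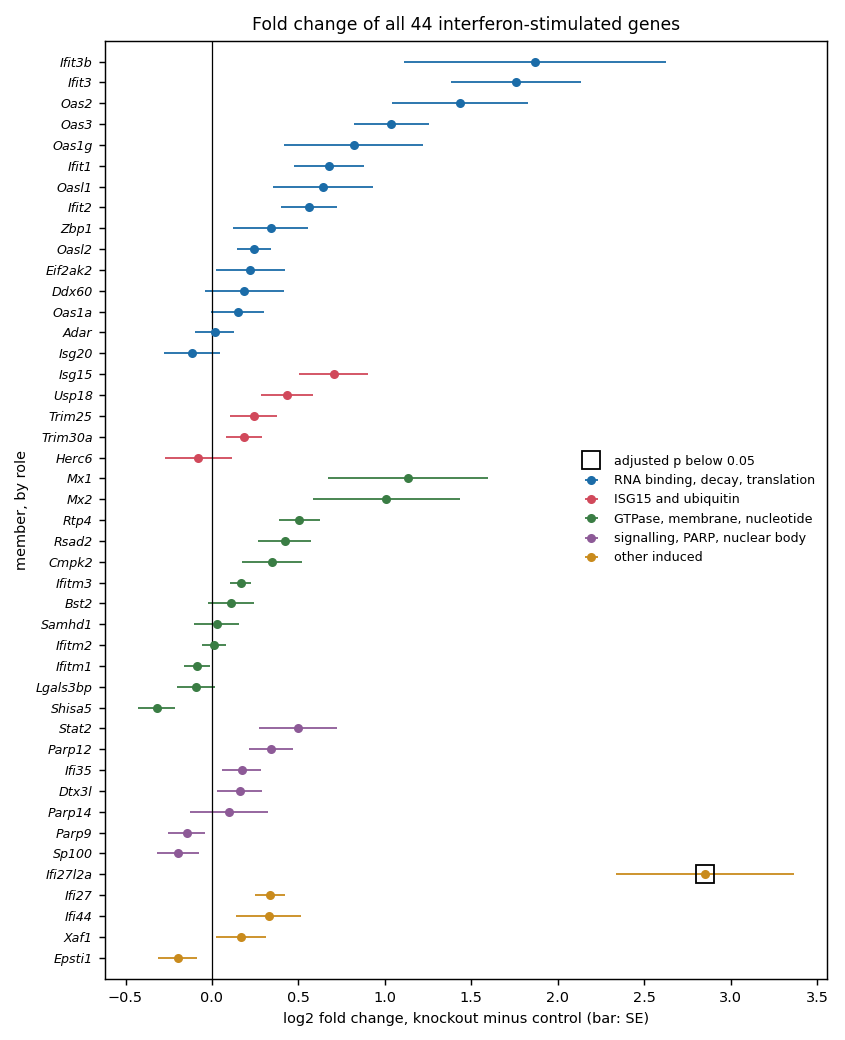
Log2 fold change (knockout minus control, x axis) of all 44 members grouped by role (y axis, colours), with bars of 1 SE from the limma fit on 3 libraries per group and a square around the 1 member with adjusted p below 0.05, Ifi27l2a. A total of 36 points lie above 0, from Adar and Ifitm2 close to 0 up to Ifi27l2a at 2.85, and 8 lie below 0, down to Shisa5 at -0.32.

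Each member was also centred on its own mean over the 6 libraries. The median over members was -0.04, -0.16 and -0.12 on the log2 scale in control replicates 1 to 3 and 0.12, 0.12 and 0.15 in knockout replicates 1 to 3, whereas the median over all genes lay between 0.007 and 0.021 in every library. Control replicate 1 was thus the highest of the control libraries for the members, and the knockout libraries lay close together. The highest value of a member fell in a knockout library for 13, 8 and 14 members (replicates 1 to 3) and in a control library for 4, 4 and 1. The median SD of the members within a group was 0.159 in control and 0.145 in knockout on the log2 scale, lower than the 0.215 and 0.212 of all genes. Summed over the 44 members the level was 4716, 4482 and 4595 CPM in control and 5040, 4974 and 4887 CPM in knockout, a sum to which the Ifitm genes contribute most.

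**Figure D2:**
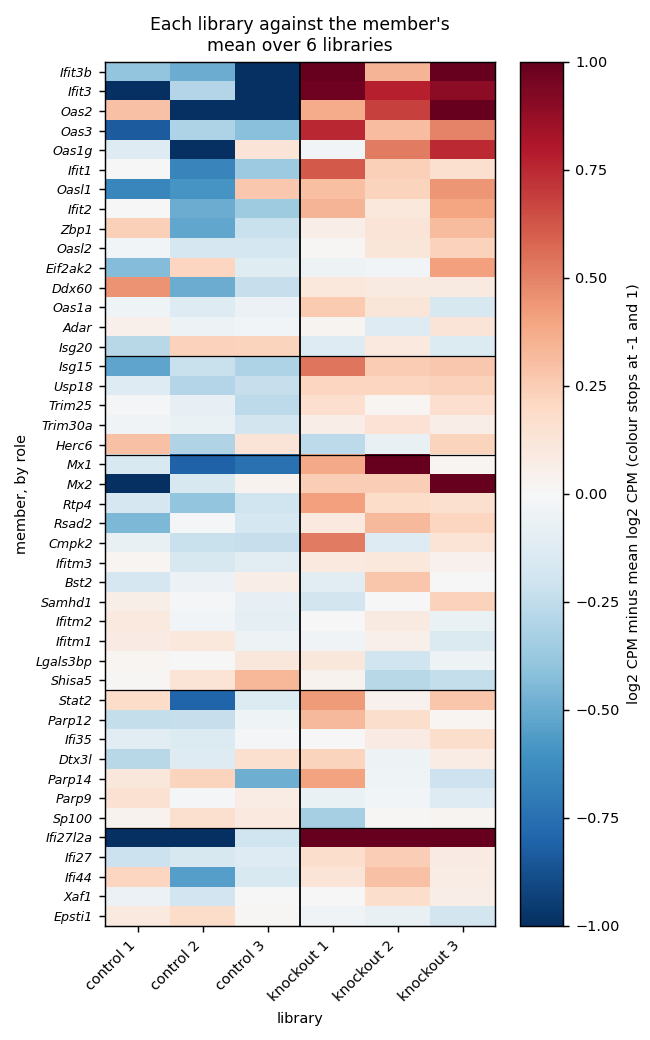
Log2 CPM of each member (rows, grouped by role) in each library (columns) minus the member's mean over 6 libraries, with the colour scale ending at -1 and 1. Red prevails in the 3 knockout columns and blue in the 3 control columns, and Oas2, Zbp1, Ddx60, Ifi44 and Herc6 are among the rows that are red in control replicate 1.

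Promoters show the element through which ISGF3 acts. RefSeq promoter windows (GRCm38.p6, 250 bases before to 50 after a start) were found for 34 of the 44 members by symbol. The core of the ISRE was searched on both strands as a pair of GAAA runs with 2 bases of any kind between them, and matches may overlap each other. At least 1 match lay in a window of 16 of these 34 members (47.1%), beside 3.99% of the 27025 genes with a window (3.44% of 32851 windows). The gamma-activated site TTCNNNGAA was matched in 10 of the 34 members (29.4%) beside 9.55% of genes. Below are the 250 bases before the start of 5 members, with ISRE matches in capitals, chosen after their values were seen. Isg15, Oas3 and the near-identical Ifit3 and Ifit3b hold the element and were higher in every knockout library, and Oas1a holds it and overlapped between the groups.
Isg15 (chr4:156200819-156201068, minus strand): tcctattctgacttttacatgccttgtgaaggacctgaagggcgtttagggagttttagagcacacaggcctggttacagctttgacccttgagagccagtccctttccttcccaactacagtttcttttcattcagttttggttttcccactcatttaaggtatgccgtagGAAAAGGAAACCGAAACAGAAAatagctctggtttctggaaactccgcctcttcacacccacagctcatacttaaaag
Oas3 (chr5:120777660-120777909, minus strand): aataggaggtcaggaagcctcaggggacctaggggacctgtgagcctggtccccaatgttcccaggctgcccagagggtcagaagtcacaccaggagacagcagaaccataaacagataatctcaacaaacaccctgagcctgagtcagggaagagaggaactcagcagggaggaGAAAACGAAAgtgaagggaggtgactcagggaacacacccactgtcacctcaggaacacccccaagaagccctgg
Ifit3 (chr19:34583279-34583528, plus strand): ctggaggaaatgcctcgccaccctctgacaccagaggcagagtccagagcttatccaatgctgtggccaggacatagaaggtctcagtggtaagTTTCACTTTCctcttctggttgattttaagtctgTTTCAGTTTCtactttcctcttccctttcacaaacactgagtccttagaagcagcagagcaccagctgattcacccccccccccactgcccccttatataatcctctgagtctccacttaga
Ifit3b (chr19:34607707-34607956, plus strand): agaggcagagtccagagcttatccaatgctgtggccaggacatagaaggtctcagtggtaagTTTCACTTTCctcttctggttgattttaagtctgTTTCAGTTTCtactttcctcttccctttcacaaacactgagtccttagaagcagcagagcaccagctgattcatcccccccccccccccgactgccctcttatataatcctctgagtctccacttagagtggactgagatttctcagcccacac
Oas1a (chr5:120907526-120907775, minus strand): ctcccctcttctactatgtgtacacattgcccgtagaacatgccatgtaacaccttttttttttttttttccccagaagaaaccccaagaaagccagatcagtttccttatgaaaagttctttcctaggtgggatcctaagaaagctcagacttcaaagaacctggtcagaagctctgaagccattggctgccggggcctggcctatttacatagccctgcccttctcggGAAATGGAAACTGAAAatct
Isg15 holds 3 overlapping matches, the first beginning 78 bases before the start. The single match of Oas3 begins 75 bases before the start. Ifit3 holds 2 matches on the other strand, beginning 156 and 122 bases before the start, and the same 2 letter runs stand in Ifit3b at 188 and 154 bases. Both matches of Oas1a lie within 20 bases of the start. The 16 members with a match had a median log2 fold change of 0.32, with 15 positive values and 8 whose knockout libraries all lay above control. The 18 members with a window and no match had a median of 0.16, with 12 positive values and 6 such members. The 10 members with no window had a median of 0.47, with 9 positive values and 7 such members, and held the 1 called member. Of all genes tested, 8.52% had every knockout library above every control library. A match of letters is a description, and no test compared these groups.

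The members that bind or degrade RNA or hold back translation had 14 of 15 positive fold changes, a median of 0.56 and 0 calls. In 7 of them every knockout library lay above every control library, beside 8.52% of all genes tested. Ifit proteins, encoded side by side on chromosome 19, bind viral RNA that lacks host cap marks. Ifit3 was at 2.60, 4.86 and 2.68 CPM in control and at 11.7, 10.2 and 11.1 CPM in knockout. Every knockout library exceeded every control library, and the log2 fold change between the group means was 1.76 (SE 0.38). Ifit3 did not pass the test (limma adjusted p = 0.0869, range over alternatives 0.0264 to 0.339), and passed it on log2(CPM + 1) (0.0457) and log2(CPM + 5) (0.0264). Ifit3b had the lowest level of all members, at 1.14, 1.06 and 0.390 CPM in control and 4.004, 1.89 and 3.14 CPM in knockout (log2 fold change 1.87, SE 0.76, adjusted p = 0.428). The groups of Ifit3b did not overlap either, but its libraries spread more than those of Ifit3. Transcripts of the pair share 98% of aligned bases, and 51.2% of all 50-base stretches of Ifit3 also occur in Ifit3b, so their reads may have been split between them.

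Ifit1 was at 43.97, 27.7 and 34.1 CPM in control and at 67.1, 51.7 and 48.8 CPM in knockout (log2 fold change 0.68, SE 0.20, adjusted p = 0.27). Ifit2 was at 63.7, 45.1 and 49.6 CPM in control and at 80.4, 68.3 and 83.3 CPM in knockout (0.56, SE 0.16, adjusted p = 0.248). For both, all knockout libraries lay above all control libraries, and the test was not passed. Ifit1 and Ifit3b lie inside the bounds of Ifit1bl1 on the opposite strand, which differed by -1.15 on the log2 scale (SE 0.46, adjusted p = 0.416). The strand setting of the counting is not given in the sources used here.

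Oas enzymes make the messenger 2-5A that activates the ribonuclease RNase L, and their genes stand in clusters on chromosome 5. Oas3 was at 13.9, 20.0 and 18.4 CPM in control and at 41.5, 30.5 and 34.9 CPM in knockout. Its groups did not overlap, and the log2 fold change was 1.04 (SE 0.22, adjusted p = 0.0779, range over alternatives 0.0505 to 0.285). Oas2 was at 24.2, 8.90 and 8.03 CPM in control and at 25.5, 31.7 and 42.2 CPM in knockout (1.43, SE 0.40, adjusted p = 0.215). Control replicate 1 stood apart for Oas2, close to the lowest knockout library, and without that replicate the log2 fold change was 1.94 and Oas2 passed the test (adjusted p = 0.0105, or 0.0111 with the genes of all 6 libraries kept, in a range over alternatives of 0.0105 to 0.529). Oas1g was at 8.19, 3.83 and 9.84 CPM in control and 8.79, 12.8 and 15.04 CPM in knockout (0.82, SE 0.40, adjusted p = 0.52), with overlapping groups. Oas1a, its neighbour and near copy (97.5% of aligned transcript bases), was at 48.9, 46.0 and 48.4 CPM in control and 60.2, 54.7 and 45.04 CPM in knockout (0.15, 95% interval -0.19 to 0.49, adjusted p = 0.782). The share of 50-base stretches of Oas1a that also occur in Oas1g was 56.9%.

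Oasl1, an OAS-like protein known in mouse to restrain translation of Irf7, was at 9.55, 9.98 and 18.1 CPM in control and 18.5, 17.5 and 20.4 CPM in knockout (0.64, SE 0.29, adjusted p = 0.482). Oasl2 was at 166.1, 150.9 and 150.2 CPM in control and 170.4, 184.2 and 198.6 CPM in knockout (0.24, SE 0.10, adjusted p = 0.419). Oasl1 overlapped through control replicate 3, and Oasl2 did not overlap. The other members of this role, Eif2ak2 (the kinase PKR), Zbp1 (a sensor of Z-form nucleic acid), Adar (an RNA editing enzyme), Ddx60 (a helicase) and Isg20 (an exonuclease), had log2 fold changes from -0.11 (Isg20) to 0.34 (Zbp1), and the groups of all 5 overlapped. Adar had the narrowest interval of these, from -0.23 to 0.26. The bounds of Eif2ak2 enclose Gm6548, which differed by -0.27 on the log2 scale (SE 0.19, adjusted p = 0.656).

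In the ISG15 and ubiquitin system 4 of 5 members were higher in every knockout library, beside 8.52% of all genes tested, and 0 were called. Isg15, the ubiquitin-like protein itself, was at 15.1, 18.7 and 17.6 CPM in control and at 31.6, 26.0 and 26.3 CPM in knockout (log2 fold change 0.70, SE 0.20, adjusted p = 0.231). Usp18, the protease that removes ISG15 and that also damps the interferon receptor, was at 33.3, 29.8 and 31.1 CPM in control and at 42.2, 42.2 and 42.6 CPM in knockout (0.43, SE 0.15, adjusted p = 0.337). The knockout libraries of Usp18 were almost equal and all above control. Trim25, a ubiquitin ligase that acts with the RNA sensor RIG-I, was at 56.3, 53.7 and 47.5 CPM in control and at 63.9, 57.8 and 64.0 CPM in knockout (0.24, SE 0.14, adjusted p = 0.576). Trim30a, known in mouse as a brake on NF-kB signalling, was at 107.8, 105.7 and 97.4 CPM in control and at 115.4, 122.1 and 115.9 CPM in knockout (0.19, SE 0.10, adjusted p = 0.567). Herc6, the ligase that attaches ISG15 in mouse, had overlapping groups and a log2 fold change of -0.08 (95% interval -0.51 to 0.35).

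**Figure D3:**
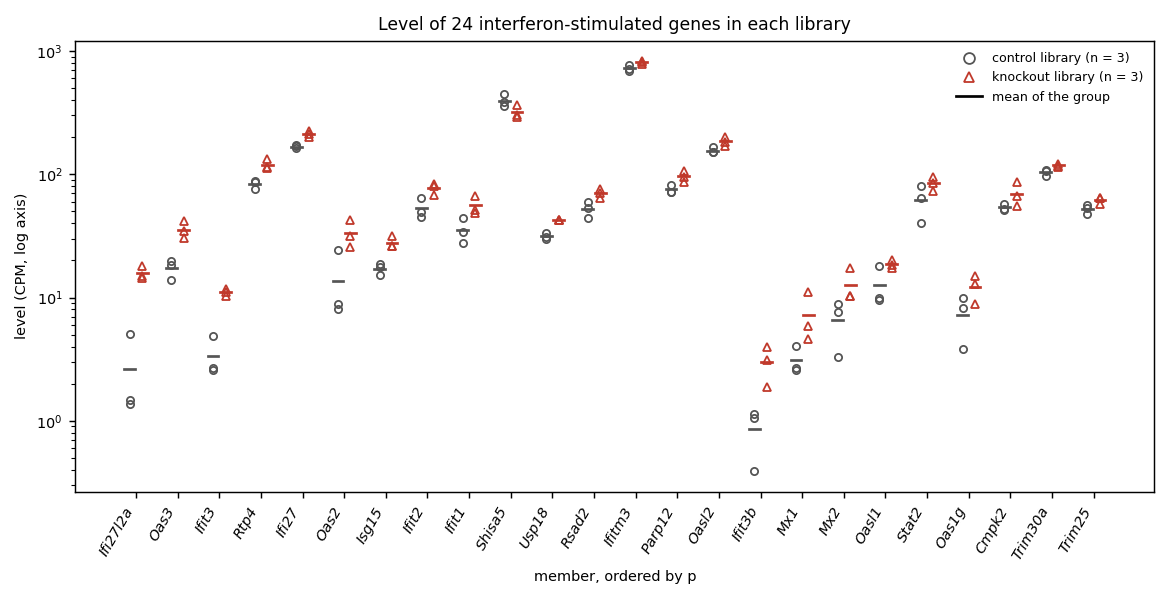
Level (CPM, log axis) of the 24 members with the smallest p in each of 3 control libraries (circles) and 3 knockout libraries (triangles), with short lines at group means, ordered along the x axis by p. Ifi27l2a, Ifit3b and Ifit3 show the widest gaps between the group means on this axis. Shisa5 is the only one of the 24 with a lower mean in knockout, and Shisa5, Oasl1, Stat2, Oas1g and Cmpk2 overlap.

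The antiviral GTPases, membrane and nucleotide effectors had 9 positive fold changes of 12, a median of 0.14 and 0 calls. Knockout libraries all lay above control in 5 of the 12, beside 8.52% of all genes tested. Mx1, whose promoter drives the Cre transgene, and Mx2 encode dynamin-like GTPases, and C57BL/6 mice carry an Mx1 allele that makes no functional protein. Mx1 was at 4.06, 2.58 and 2.68 CPM in control and at 5.87, 11.1 and 4.58 CPM in knockout (log2 fold change 1.13, SE 0.46, adjusted p = 0.432). Mx2 was at 3.29, 7.70 and 8.83 CPM in control and at 10.2, 10.2 and 17.5 CPM in knockout (1.01, SE 0.42, adjusted p = 0.447). In both genes the groups did not overlap, and 1 knockout library lay well above the other two, replicate 2 for Mx1 and replicate 3 for Mx2.

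Rtp4, a chaperone that restrains the interferon response in mouse, was at 88.6, 76.1 and 87.1 CPM in control and at 132.6, 113.6 and 111.7 CPM in knockout (0.51, SE 0.12, adjusted p = 0.135). Its knockout libraries all exceeded control. Rsad2 (viperin), which makes a chain-terminating nucleotide, and Cmpk2, the kinase that supplies it, stand side by side on chromosome 12. Rsad2 was at 44.2, 60 and 53.5 CPM in control and at 64.4, 75.5 and 70.1 CPM in knockout (0.42, SE 0.15, adjusted p = 0.364), without overlap. Cmpk2 was at 57.6, 52.0 and 51.6 CPM in control and at 86.6, 55.3 and 66.6 CPM in knockout (0.35, SE 0.17, adjusted p = 0.525), with 1 knockout library below the highest control library.

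The Ifitm proteins, which block viral entry at membranes and are encoded together on chromosome 7, were the most abundant members per kilobase of exon. Ifitm3 reached 1067 CPM per kilobase in control, Ifitm2 818.5 and Ifitm1 463.9, and the next member, Shisa5, reached 120.2. Ifitm3 was at 774.9, 686.5 and 709.5 CPM in control and at 820.9, 825 and 787 CPM in knockout (log2 fold change 0.17, SE 0.06, adjusted p = 0.367). Ifitm3 thus separated the groups with a small difference. Ifitm2 was at 574.9, 527.1 and 506.5 CPM in control and at 537.5, 571.3 and 513.4 CPM in knockout (0.01, 95% interval -0.14 to 0.17). Ifitm1 was at 520.2, 528 and 474.3 CPM in control and at 480.3, 510.5 and 444.5 CPM in knockout (-0.09, 95% interval -0.25 to 0.08). Both overlapped between the groups. Shisa5, a membrane protein linked to p53-dependent cell death, was at 355.5, 388.2 and 445.1 CPM in control and at 361.6, 291.1 and 300.1 CPM in knockout (-0.32, SE 0.11, adjusted p = 0.315), the lowest fold change of the 44. Bst2 (tetherin, which holds budding virus at the cell surface), Samhd1 (which depletes deoxynucleotides) and Lgals3bp (a secreted galectin-binding protein) had log2 fold changes from -0.09 to 0.11 with overlapping groups.

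Of the 7 signalling, PARP and nuclear body genes, 5 had positive fold changes, and the median was 0.16 with 0 calls. Stat2, the ISGF3 subunit that carries its activation domain, was at 80.2, 40.4 and 64.2 CPM in control and at 94.8, 72.5 and 85.3 CPM in knockout (0.50, SE 0.23, adjusted p = 0.489). Control replicate 2 held the lowest Stat2 level, and control replicate 1 overlapped the knockout range. Parp12, an ADP-ribosyltransferase, was at 71.8, 72.3 and 82.1 CPM in control and at 106.1, 95.7 and 85.9 CPM in knockout (0.34, SE 0.13, adjusted p = 0.378), without overlap. Ifi35, a partner of the protein Nmi, was also higher in every knockout library, with a log2 fold change of 0.17 (95% interval -0.08 to 0.42). Parp9 and Dtx3l, which form a complex that modifies histones and ubiquitin and whose genes overlap head to head on chromosome 16, had values of -0.15 and 0.16. Parp14, a further ADP-ribosyltransferase of that locus, had 0.10. Sp100, a constituent of PML nuclear bodies, had -0.20 (95% interval -0.46 to 0.07).

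Among the other induced genes 4 of 5 had positive fold changes, and the 1 call of the whole list lay here. Every knockout library exceeded control for 3 of the 5, beside 8.52% of all genes tested. Ifi27l2a (gene ID 76933, chromosome 12, 103433873 to 103443680, GRCm38) was at 1.36, 1.47 and 5.09 CPM in control and at 14.4, 14.9 and 18.2 CPM in knockout. The knockout libraries all lay above control replicate 3, the highest control library, and the log2 fold change was 2.85 (SE 0.51, limma adjusted p = 0.0393). It did not pass when control replicate 1 or 2 or any 1 knockout library was left out (adjusted p = 0.0723 to 0.224), without the mean-variance trend (0.203) and without the low-value filter (0.203), within a range over alternatives of 0.00353 to 0.224. Ifi27 (chromosome 12, 103434189 to 103440245), of the same family, lies within those bounds on the opposite strand and was far more abundant, at 161.9, 167.9 and 172.4 CPM in control and 212.8, 222.6 and 199.5 CPM in knockout. Ifi27 did not overlap between the groups and differed by 0.34 on the log2 scale (SE 0.09, adjusted p = 0.175). The transcripts of the pair share 71.3% of aligned bases and no 50-base stretch, and without strand the reads of overlapping exons cannot be told apart. Ifi44, of unclear molecular function, had 0.33 (95% interval -0.09 to 0.75), Xaf1, an antagonist of the apoptosis inhibitor XIAP, had 0.17 with separated groups, and Epsti1 had -0.20 (95% interval -0.45 to 0.06).

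Neighbouring genes were compared within libraries as ratios of their levels, over 6 pairs chosen after their values were seen. With 3 libraries against 3, an exact two-sided permutation test cannot give a p below 0.1. The ratio of Oas3 to Oas1a was 0.284, 0.434 and 0.381 in control and 0.69, 0.558 and 0.774 in knockout, without overlap (exact permutation p = 0.1, adjusted 0.15). The ratio of Ifitm3 to Ifitm1 was 1.49, 1.3 and 1.5 in control and 1.71, 1.62 and 1.77 in knockout, also without overlap (same p). The ratios of Ifit3 to Ifit2 and of Ifi27l2a to Ifi27 were likewise higher in every knockout library (same p). The ratio of Parp9 to Dtx3l overlapped between the groups (exact permutation p = 0.2, adjusted 0.24), and so did that of Rsad2 to Cmpk2 (exact permutation p = 0.9, adjusted 0.9).

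Other genes of the pathway were followed from 5 lists. Of 21 interferon ligand genes, 0 passed the low-value filter and 19 had 0 reads in every library. The ligand reads numbered 61 in all, of which 39 were Ifnz in control replicate 1. Ifnb1 and Ifng had 0 reads in each library, which allows a level of up to 0.0687 to 0.0814 CPM per library by counting error. Of 10 genes for receptors, kinases and ISGF3, all were tested, 0 were called and 8 were negative, with a median of -0.10. Jak1 (-0.17, SE 0.07, adjusted p = 0.488), Stat2 (given above) and Ifnar2 (-0.21, SE 0.11, adjusted p = 0.552), a receptor chain, had the smallest p of these. Irf9, the DNA-binding subunit of ISGF3, had a value of -0.03 (SE 0.11, adjusted p = 0.954).

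Of 12 sensors and adaptors of double-stranded RNA 1 was called higher, beside 0.407% of all genes tested. In this list 11 were positive, beside 50.5% of all genes, and the median was 0.17. Irf7, the factor that amplifies interferon alpha genes and is itself interferon-stimulated, rose from 38.5, 37.7 and 39.3 CPM in control to 66.9, 62.8 and 63.8 CPM in knockout (log2 fold change 0.74, SE 0.13, adjusted p = 0.0368). Irf7 did not pass with any 1 library left out (0.0782 to 0.177), without the trend (0.054) or without the filter (0.0566). Sting1, the adaptor of DNA sensing, had -0.37 (SE 0.12, adjusted p = 0.294) and Ddx58, the sensor RIG-I, 0.34 (SE 0.15, adjusted p = 0.489). Of 12 negative regulators 0 were called, 7 were positive and the median was 0.10, with 0.45 for Irf2bp2 (adjusted p = 0.262), a corepressor partner of Irf2, and 0.76 for Socs1 (adjusted p = 0.424), an inhibitor of Jak kinases, beside Usp18.

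Of 20 targets of interferon gamma and IRF1, 19 were tested and 0 were called, 15 were negative and the median was -0.10. Cxcl10, a chemokine induced by both kinds of interferon, had 1.42 (SE 0.42, adjusted p = 0.264), Irf1 -0.30 (SE 0.09, adjusted p = 0.264) and Ciita, the master regulator of MHC class II, -0.82 (SE 0.30, adjusted p = 0.363). The lists were not tested against each other.

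**Figure D4:**
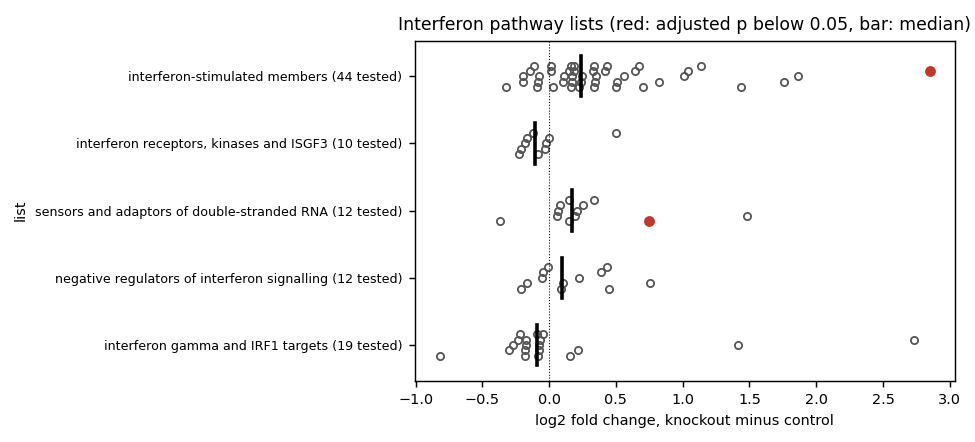
Log2 fold change (knockout minus control, x axis) of each tested gene of the 44 members and 4 pathway lists (rows), with a bar at the median and red for adjusted p below 0.05. The median lies at 0.24 for the 44 members, 0.17 for sensors and 0.10 for negative regulators, and at -0.10 for both the receptor list and the interferon gamma list, and the 2 red points are Ifi27l2a and Irf7.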

How the data were processed

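The authors deposited 1 table of log2 CPM values for 6 RNA-seq libraries, with genes named by NCBI number. The tools were HISAT2, FastQC, limma and featureCounts and the build was mm10, per the submitters' processing notes. Their versions, the strand setting and the handling of reads with several alignments are not given in these sources. Undoing log2 of reads plus 0.5 over an effective library size gave whole reads for 100.0% of values (tolerance 0.01). CPM in the text are these reads over that size. Symbols and coordinates came from RefSeq (GRCm38.p6), which matched 25275 of 27179 IDs, and exon lengths, strands and transcripts from GENCODE M21. Of the listed pathway genes, Tmem173 and Mb21d1 were matched by synonym as Sting1 and Cgas.

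Genes at log2 CPM of 0 or more in at least 3 of 6 libraries entered a limma fit (version 3.58.1, R 4.3.3; eBayes with a trend, no block), and Benjamini-Hochberg adjusted p below 0.05 over all 13018 genes was called. Ratios were tested by exact permutation (scipy 1.17.1), and figures were drawn with matplotlib 3.10.9. The procedure was run on simulated data with independent libraries and gene spreads drawn from the fit itself. That run does not check these assumptions. Members and lists were chosen with earlier results of these data known. Members given in full were those called and then the smallest p to a total of 24, and of each pathway list up to 3 genes by smallest p; Irf9 was added after its value was seen. Some genes of the lists are not reported here. Pairs of libraries of 1 group differed by more than sampling noise (chi-square per degree of freedom 38.9 to 53.5). The limit of 3 reads given for genes at 0 holds for counting error alone, because reads lacking molecular identifiers may be copies of 1 molecule. Alternatives were other filters (none, 5 CPM), median centring, quantile normalization, log2(CPM + 0.1, 1 or 5), no trend, robust eBayes, voom, the replicate number as a block, and each library left out in turn, with the filter repeated or not.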

Additional observations from a re-analysis of the deposited data

How the results depend on the processing

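The count of members called higher was 1 and became 0 without the low-value filter, without the trend and with replicate number as a block, and 2 with log2(CPM + 1) or log2(CPM + 5), where Ifit3 joined Ifi27l2a. On leaving out 1 library it ran from 0 to 1, and the 1 was Oas2 without control replicate 1 and Ifi27l2a without control replicate 3. The count of members called lower was 0 in every setting run. The median log2 fold change of the members ran from 0.22 to 0.30 on leaving out 1 library (0.297 without control replicate 1). Members higher in every knockout library numbered 21, and 18 with median centring and 19 with the 5 CPM filter, which left 42 members. With 1 library left out and the same genes kept, such counts cannot fall, for members or for all genes. The counts of members were then 22 to 26 higher and 3 to 5 lower. Smaller groups separate more easily and the share over all genes is not given here, so these counts are no check on the 21. Ifitm2 changed sign without control replicate 3 and without knockout replicate 2 (-0.027 each, in a range of -0.027 to 0.064 with 1 library left out), and the other members given in full, Oas1a and Ifitm1 kept their sign in all settings.

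Over all genes, 53 were called higher and 38 lower. The counts were 19 and 14 without the filter, 105 and 59 with log2(CPM + 1), and 104 and 64 with log2(CPM + 5). Lower genes numbered 15 without the trend and 23 with the block. With 1 library left out and the filter repeated, 20 to 66 were called higher and 22 to 31 lower. With the genes of all 6 libraries kept, 20 to 64 were called higher and 19 to 28 lower, including 25 lower without control replicate 2 and 28 higher and 24 lower without knockout replicate 1. The log2 fold change of Prdm16 was -1.93 without the filter (adjusted p = 0.0599) and without the trend (0.0967), and ran from -2.17 to -1.76 on leaving out 1 library, with the call lost without knockout replicate 2 (-1.82, adjusted p = 0.0508 or 0.065). The cause was not tested.

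Same-numbered libraries did not deviate together (correlations of deviations -0.010, -0.021 and 0.020), so the numbers do not pair samples. With the replicate block the adjusted p of Ifi27l2a was 0.0506 and that of Irf7 0.128. Depth limits what can be seen of the ligands.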
